A study of Mus musculus with 8 samples.

Results

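The baseline difference between staggerer and wild type mouse embryonic fibroblasts, before any drug, was read from 4 bead arrays: 2 of untreated wild type cells and 2 of untreated staggerer cells, out of 8 arrays in the series. The members are genes, each represented by its brightest probe. Of 9340 genes tested, 8835 were above background on at least 1 of the 4 untreated arrays; the other 505 stayed in the fit and in every count, but none is named. Embryonic fibroblasts are connective tissue cells grown out of embryos. Both genotypes had a C57BL/6J genetic background and were grown in DMEM with L-glutamine and fetal bovine serum, and the untreated cultures received none of the DNA-damaging anthracycline doxorubicin that the treated arms had for 12 h. The labels name no allele beyond "staggerer" and give no embryo age, sex, litter, passage or pooling. Nor is it stated if both arrays of a genotype came from separate cultures or embryos. The p-values below therefore measure only the spread between these samples, which may be technical, and a difference between the genotypes cannot be told apart from a difference between the embryos or cultures used.

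Rora encodes RORα, an orphan nuclear receptor that binds DNA as a monomer at an A/T-rich stretch followed by a single half-site, and activates genes there. The REV-ERB receptors bind the same element and repress, and the balance between them drives the rhythmic transcription of the clock gene Arntl (Bmal1). Staggerer is a mouse mutation, an intragenic deletion of Rora that removes the function of the receptor, and it is best known for the loss of cerebellar Purkinje cells and for altered lipid and inflammatory responses. The untreated comparison asks which genes differ between the genotypes before any drug is given.

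On the 4 arrays compared, 11154 and 11059 probes were above background in wild type cells and 10986 and 10942 in staggerer cells. Values are log2 normalised intensity, on which a step of 1 is a doubling. Replicates correlated across genes with Pearson's r of 0.995 in wild type and 0.994 in staggerer. Before normalization the wild type arrays were brighter: the median background-corrected log2 signal was 9.11 and 8.85 in wild type against 8.62 and 8.61 in staggerer. Quantile normalization, which gives every array the same distribution, removes that gap, so each difference below is relative to the other genes. The 2 arrays of staggerer cells after doxorubicin stood apart from the rest of the series, with medians of 7.64 and 7.55, and they enter the estimate of the spread but not the means compared here.

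At a limma adjusted p under 0.05, 1210 of 9340 genes differed between the genotypes (13%), of which 625 were higher in staggerer (6.69%) and 585 lower (6.26%). At least a 2-fold difference was seen for 223 genes higher and 250 lower (5.06% together), and at least a 4-fold difference for 28 higher and 52 lower. The median log2 difference over all genes was -0.01, and the called genes had a median size of 0.86 against a median standard error of 0.16. The smallest difference called was 0.43. Of the called genes, 51.7% were higher in staggerer. That split depended on the scaling: median centring in place of quantile normalization gave 490 genes higher and 923 lower (34.7% higher, with the median of all genes at -0.11), and no normalization between arrays gave 301 higher and 2269 lower (11.7% higher, median -0.34). Without wild type replicate 1, wild type replicate 2, staggerer replicate 1 or staggerer replicate 2 the count was 523, 548, 580 and 551. Where a named call was lost on leaving out an array, the highest adjusted p over the 8 arrays left out in turn is in most cases given as "up to". In each such case the array with that highest value was 1 of the 4 compared. Some of these calls were also lost without a wild type doxorubicin array, which enters the estimate of the spread only.

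**Figure D1:**
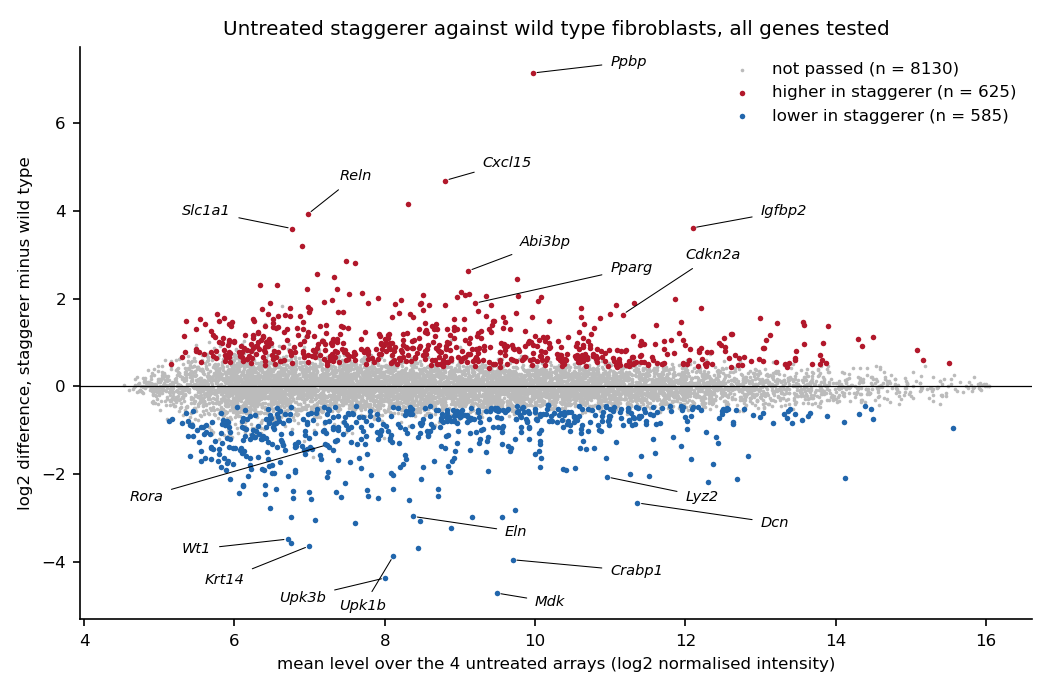
Each point is a gene, plotted by its mean log2 normalised intensity over the 4 untreated arrays (horizontal) and its log2 difference, staggerer minus wild type (vertical), coloured by the limma call at an adjusted p of 0.05. The 625 genes called higher and 585 called lower spread over the whole range of levels, and Ppbp at 7.14 and Mdk at -4.71 mark the ends.

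The largest difference in either direction was in Ppbp, which encodes CXCL7, a chemokine best known from platelet granules that attracts neutrophils. It measured 6.19 and 6.62 on the wild type arrays and 13.62 and 13.46 on the staggerer arrays, a log2 difference of 7.14 ± 0.16 (SE; adjusted p = 1.87e-06). The gene thus sat just above background in wild type and far above it in staggerer, with no overlap. Cxcl15, the chemokine lungkine, followed with 6.69 and 6.22 against 11.13 and 11.17 (4.69 ± 0.24; adjusted p = 5.46e-05). Igfbp2, a secreted binding protein that holds insulin-like growth factors, was already well above background in wild type at 10.22 and 10.37 and reached 13.95 and 13.85 in staggerer (3.61 ± 0.12; adjusted p = 1.4e-05). The next 9 named genes detected on all 4 arrays were higher by 2.08 to 2.63. They were Abi3bp, an extracellular matrix protein; Parm1; Car11, a catalytically inactive member of the carbonic anhydrase family; Mmp3, the protease stromelysin-1; Cdh13, a cadherin anchored to the membrane by lipid; Myom1, which cross-links myosin in the sarcomere M band; Vip, vasoactive intestinal peptide; Hoxd10; and Adgrg2, an adhesion G protein-coupled receptor. All 12 had both staggerer arrays above both wild type arrays and kept their calls without each array in turn. These genes were chosen as the largest differences on these same arrays, so the separation of their arrays is not a further result. A second probe gave a smaller difference for Abi3bp (0.54) and Cdh13 (1.07). Col10a1, collagen X of hypertrophic cartilage, lay outside the rule by which genes were named, because it was above background on 1 of the 2 wild type arrays, and is given after its values were seen. It measured 6.46 and 5.99 in wild type and 10.50 and 10.27 in staggerer, a log2 difference of 4.16 ± 0.20 (adjusted p = 3.86e-05).

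The largest fall was in Mdk, midkine, a heparin-binding growth factor abundant in embryonic tissue. Its level was 11.82 and 11.87 in wild type and 7.11 and 7.17 in staggerer, a log2 difference of -4.71 ± 0.11 (adjusted p = 1.87e-06). Crabp1, which binds retinoic acid in the cytoplasm, measured 11.82 and 11.54 against 7.80 and 7.66 (-3.95 ± 0.19; adjusted p = 3.8e-05). Upk1b, a uroplakin of urothelial and mesothelial surfaces, measured 10.26 and 9.84 against 6.21 and 6.16 (-3.86 ± 0.20; adjusted p = 5.46e-05). In each of these the replicates lay close together, and the gap between the genotypes was the basis of the choice. Fxyd6, a regulator of the sodium pump, was lower by 3.69, and Chchd10, a mitochondrial intermembrane protein, was lower by 3.07. Lrrc15, a membrane protein of mesenchymal cells, Des, the muscle intermediate filament desmin, and Eln, elastin, differed by -2.98 to -2.96. Laptm5, a lysosomal protein of blood cells, Dcn, the collagen-binding proteoglycan decorin, Fcer1g, the signalling chain of Fc receptors, and Mfap4, a microfibril-associated protein, completed the 12 with differences from -2.82 to -2.55. The calls of all 12 held without each array.

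**Figure D2:**
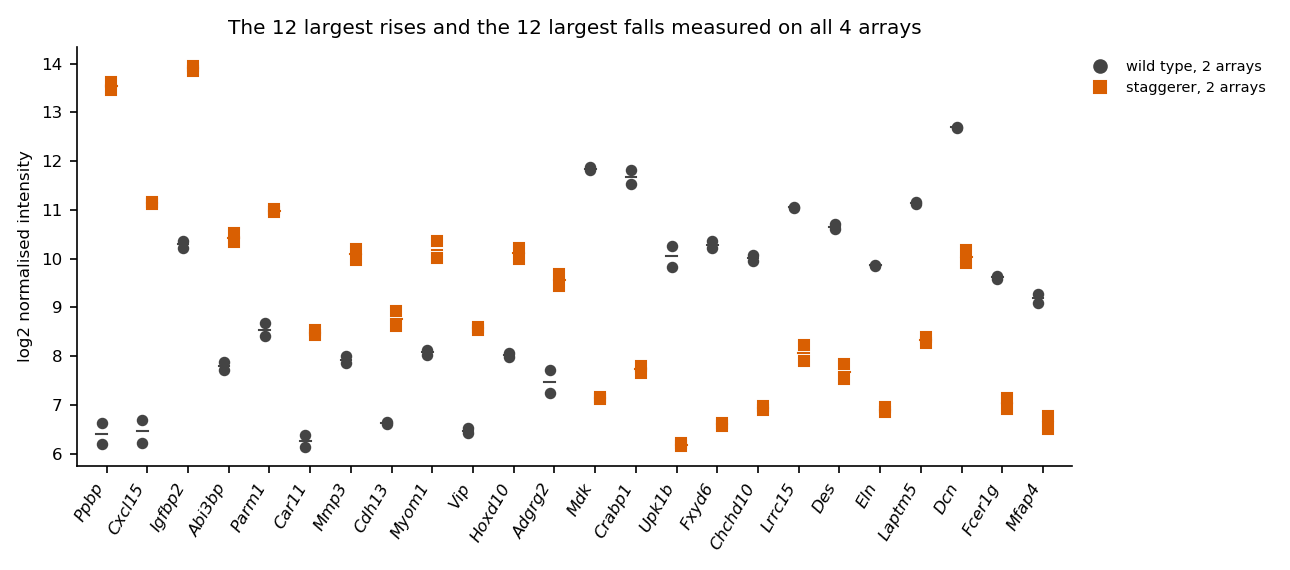
Log2 normalised intensity of the 12 genes with the largest rises and the 12 with the largest falls, among called genes detected on all 4 untreated arrays. Each symbol is an array, in 2 colours for the genotypes, and the 2 arrays of a genotype lie together for every gene. The genes were chosen by the size of their difference on these arrays, so the gap between the genotypes is part of the choice.

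Some genes were above background in 1 genotype only, so their difference has a bound and not a value. In 86 called genes both wild type arrays were below background, and in 116 both staggerer arrays were. Reln, the secreted glycoprotein reelin that guides neuronal layering, measured 9.02 and 8.86 in staggerer and was at least 7.29-fold higher (adjusted p = 2.28e-05). Slc1a1, a glutamate and cysteine transporter, was at least 5.63-fold higher (8.55 and 8.58 in staggerer), and its second probe, also below background in wild type, gave a fitted log2 difference of 1.84. Wfdc1 was at least 5.36-fold higher, Galnt9, which starts mucin-type glycosylation, at least 4.96-fold and Mdga2, a neuronal adhesion protein, at least 3.15-fold. Ahrr, the repressor of the aryl hydrocarbon receptor, was at least 2.94-fold higher, but lost its call without a compared array (adjusted p up to 0.101). In the other direction Upk3b, a uroplakin, measured 10.08 and 10.30 in wild type and was at least 16.8-fold lower in staggerer (adjusted p = 1.4e-05). Krt14, a keratin of basal epithelium, was at least 6.47-fold lower, Ms4a6d, a membrane protein of macrophages, at least 5.52-fold, Vat1l at least 5.36-fold, Wt1, the transcription factor of mesothelium and kidney progenitors, at least 5.03-fold, and Cxadr, a tight junction protein, at least 4.54-fold. Second probes of Upk3b (-2.73) and Ms4a6d (-1.43) gave smaller fitted log2 differences of the same sign.

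The receptor itself gave 7.72 and 8.08 in wild type and 6.58 and 6.56 in staggerer for Rora, a log2 difference of -1.33 ± 0.17 (adjusted p = 0.00217). The staggerer arrays were lower without overlap, yet above background on both. A second Rora probe was below background on all 4 arrays. Where the brighter probe lies relative to the deletion is not given in the sources used here, so its signal does not check the genotype labels. Among the 9 tested ROR and REV-ERB receptors and their cofactors (22.2% called, against 13% of all genes), Ppargc1b, a coactivator of nuclear receptors, was the other member called. It was at least 1.34-fold lower, a call lost without a compared array (adjusted p up to 0.15). The bright members Rxrb (-0.14 ± 0.15) and Ep300 (0.06 ± 0.14) did not pass.

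None of the 12 tested circadian clock genes passed in limma, against 13% of all genes, and 3 of the 12 had an unadjusted p under 0.05 (1 higher, 2 lower). Other fits called 0 to 4 of them: Bhlhe40 passed in 10 of them, among them no background correction, the authors' table and the fit without staggerer replicate 1. Nr1d1 passed with only the 4 untreated arrays (adjusted p = 0.0367) and without 1 or both staggerer doxorubicin arrays (adjusted p = 0.0277). Ciart passed with median centring (adjusted p = 0.046), and Ciart, Nr1d2 and Tef with no between-array normalization. The direct ROR targets of the clock were measured: Arntl, the activator of the core loop, gave 8.45 and 8.03 in wild type and 7.94 and 7.99 in staggerer (-0.27 ± 0.28, adjusted p = 0.592). Nr1d1, which encodes REV-ERBα, gave 7.34 and 7.39 against 7.82 and 7.92 (0.50 ± 0.15, adjusted p = 0.0669). Its staggerer arrays lay above the wild type arrays, short of the threshold. Clock (-0.12 ± 0.11), Nr1d2 (-0.25 ± 0.23), Cry2 (0.32 ± 0.40), Per1 (-0.17 ± 0.28) and Per2 (0.40 ± 0.21) include the partner of Arntl and repressors of the loop, and did not pass. Neither did the output factors Dbp (-0.10 ± 0.14) and Tef (-0.23 ± 0.12), nor Bhlhe40 (-0.63 ± 0.20, adjusted p = 0.0852), Ciart (-0.44 ± 0.16) and Nfil3 (0.05 ± 0.14). The labels give no time of harvest within the day.

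Genes beside Rora were taken from the annotation order. Of 30 protein-coding neighbours, 15 on each side, 13 were tested. Aph1b, a subunit of γ-secretase, was higher in staggerer by 0.68 (adjusted p = 0.0103), and Lactb, a mitochondrial serine protease, by 0.78 (adjusted p = 0.00753). Both calls were lost without a compared array (adjusted p up to 0.0779 and 0.0647). None of the 13 was called lower. These 2 of 13 stand beside 13% of all genes called.

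A search of promoters asked how often the letters of a ROR half-site occur. The motif was TAGGTCA, on either strand, in a window from 250 bases before to 50 bases after each annotated start. It was found for 157 of 7017 tested genes with a promoter in the RefSeq table (2.24%). Of genes called higher in staggerer 10 of 453 held it (2.21%), of genes called lower 13 of 408 (3.19%), and of genes not called 134 of 6156 (2.18%). These shares lie close together, and no test was made of them. Among the called genes that the naming rule picked, Ppbp, Upk3b and Cdkn2c held the letters within the 250 bases upstream. Other called genes in the text were not looked up singly. These 250 bases are shown because Ppbp and Upk3b are among the strongest differences in each direction. Sequences are from RefSeq on GRCm38.p6, in the direction of the gene, with the motif in capitals.
Ppbp (chr5:90768268-90768517, plus strand, motif in reverse from base -246): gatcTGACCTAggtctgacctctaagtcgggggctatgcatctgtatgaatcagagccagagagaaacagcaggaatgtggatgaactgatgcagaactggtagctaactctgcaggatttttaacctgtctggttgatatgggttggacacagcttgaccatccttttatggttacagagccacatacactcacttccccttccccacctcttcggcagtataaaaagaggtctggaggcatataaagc
Upk3b (chr5:136038246-136038495, plus strand, motif as read from base -156): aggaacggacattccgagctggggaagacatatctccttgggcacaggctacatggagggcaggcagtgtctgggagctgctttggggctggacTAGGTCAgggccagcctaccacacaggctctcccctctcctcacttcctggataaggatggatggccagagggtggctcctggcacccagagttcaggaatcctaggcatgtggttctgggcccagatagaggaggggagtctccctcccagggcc
Cdkn2c (chr4:109665373-109665622, minus strand, motif in reverse from base -180): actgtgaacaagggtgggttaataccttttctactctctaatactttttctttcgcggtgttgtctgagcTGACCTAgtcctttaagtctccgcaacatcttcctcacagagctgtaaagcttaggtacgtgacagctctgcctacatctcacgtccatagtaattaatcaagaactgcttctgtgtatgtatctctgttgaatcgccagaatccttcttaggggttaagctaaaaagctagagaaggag
A match says only that the letters are present in the window.

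Markers of cell types that a fibroblast culture can hold were examined next. Among fibroblast markers, the bright members Vim and Col1a1 did not pass. Vim, the intermediate filament vimentin, gave 14.48 and 14.47 in wild type and 14.71 and 14.89 in staggerer. Col1a1, the collagen I chain, gave 13.75 and 13.79 against 13.96 and 13.88. Of 14 fibroblast markers tested, 0 were called higher and 4 lower (28.6% called, against 13% of all genes). At an unadjusted p under 0.05 in limma, 2 were higher and 7 lower. Their median log2 difference was -0.36, or -0.13 with undetected members at their bound, beside -0.01 for all genes. Pdgfra, the PDGF receptor of mesenchymal cells, gave 11.33 and 11.29 against 9.50 and 9.35 (-1.88 ± 0.20; adjusted p = 0.00106). Thy1, a surface glycoprotein, was lower by 0.83, and Fap, a surface protease, was at least 1.66-fold lower. Pdpn, podoplanin, was lower by 0.67, with the call lost without a compared array (adjusted p up to 0.0737).

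Epithelial and mesothelial markers were lower in staggerer. Of 10 tested, 8 were lower and 0 higher (9 and 0 at an unadjusted p under 0.05 in limma), against 6.26% of all genes lower. They comprised the keratins Krt8, Krt14, Krt18 and Krt19, which form the filaments of epithelia, Msln, mesothelin, which was at least 2.87-fold lower, and Upk1b, Upk3b and Wt1. The call of Krt8 was lost without a compared array (adjusted p up to 0.112). Their median log2 difference was -2.08, or -1.36 with undetected members at their bound, beside -0.01 for all genes, and it lay between -2.58 and -0.81 under the other scalings. The summed signal of the list, on the log2 scale, was 11.95 and 11.85 in wild type and 9.07 and 8.99 in staggerer. All but Upk1b of the 8 were below background on both staggerer arrays. Cdh1, the epithelial cadherin, was on the array and did not pass the detection filter. Krt7 measured 6.96 and 6.98 against 6.49 and 6.16 and did not pass (adjusted p = 0.054). As these are whole cultures, fewer cells of a type and less RNA per cell cannot be told apart.

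Macrophage markers followed the same direction. Of 9 tested, 7 were lower and 0 higher (also 7 and 0 at an unadjusted p under 0.05 in limma), against 6.26% of all genes lower, with a median of -1.41 (-1.14 with bounds; -1.91 to -0.55 under the other scalings). Lyz2, lysozyme M, a secreted enzyme that cuts bacterial walls, gave 12.01 and 11.97 in wild type and 9.92 and 9.94 in staggerer (-2.06 ± 0.12; adjusted p = 7.58e-05). C1qb, a chain of complement C1q, gave 8.98 and 9.07 against 6.33 and 6.71 (-2.50 ± 0.25; adjusted p = 0.000757). Fcer1g and Laptm5 were among the largest falls of all, Cd14, the lipopolysaccharide co-receptor, was lower by 0.97, and Adgre1, the F4/80 antigen, was at least 2.2-fold lower (a second probe gave a fitted -2.49). Cd53 (-0.21 ± 0.22) did not pass, and Ctss was near background in both genotypes. The summed signal was 13.02 and 13.003 in wild type and 10.82 and 10.89 in staggerer. Macrophage transcripts were thus present in both cultures, at a lower level in staggerer, although Ptprc, Aif1, Itgam, Fcgr3 and Tyrobp, other markers of these cells, did not pass the detection filter.

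**Figure D3:**
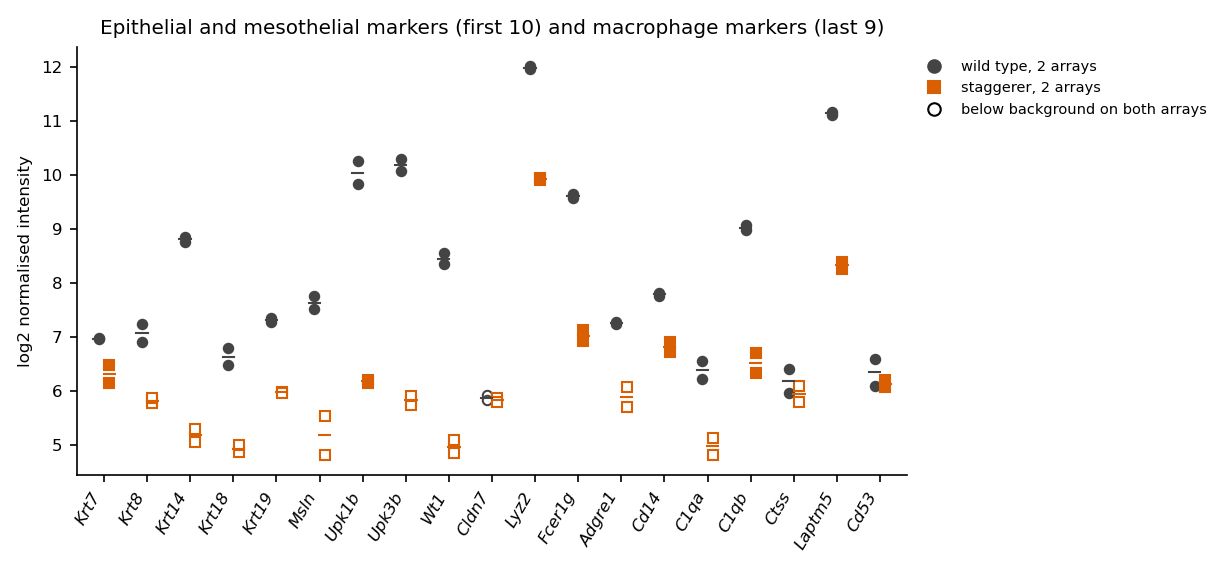
Log2 normalised intensity of the tested epithelial and mesothelial markers, followed by the macrophage markers, on the 4 untreated arrays. Open symbols mark a gene below background on both arrays of a genotype. Upk1b, Lyz2, Fcer1g and Laptm5 stand apart between the genotypes, and Upk3b, Krt14 and Wt1 are below background in staggerer.

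Other cell types gave mixed results. Of 5 endothelial markers tested, 2 were lower and 1 higher (60% called, against 13% of all genes). Emcn, endomucin, was at least 2.64-fold lower and Flt1, a VEGF receptor, gave 9.99 and 9.68 against 7.71 and 8.07 (-1.95 ± 0.17; adjusted p = 0.000424). Esam, an endothelial adhesion molecule, was above background in staggerer only, at least 1.47-fold higher, a call lost without a compared array (adjusted p up to 0.138), and Egfl7 (-0.42 ± 0.16) and Eng (-0.32 ± 0.15) did not pass. Pecam1, Cdh5, Kdr, Tek and Tie1 did not pass the detection filter. Of 6 neural genes tested, 2 were higher and 0 lower (2 and 1 at an unadjusted p under 0.05 in limma; 33.3% called). Stmn2, a microtubule destabiliser of neurons, gave 6.74 and 6.92 in wild type and 8.79 and 8.66 in staggerer (1.89 ± 0.15; adjusted p = 0.00032), and Map2, a microtubule-associated protein, was higher by 1.25. Neither Nes (-0.20 ± 0.18) nor Gap43 (-0.64 ± 0.27) passed, and 15 further neural genes did not pass the detection filter, Tubb3, Sox2 and Dcx among them. In the neural crest list 3 of 6 were higher and 1 lower (66.7% called). Tfap2a, a transcription factor of crest and skin, was higher by 0.94, and its relative Tfap2b (1.18) and the neurotrophin receptor Ngfr (1.23) were called higher but lost their calls without a compared array (adjusted p up to 0.064 and 0.0791). Mbp, myelin basic protein, was lower by 1.30. Of the sex-linked genes, Xist, the RNA of the inactive X chromosome, gave 8.52 and 8.45 against 8.28 and 7.94 (-0.38 ± 0.15; adjusted p = 0.158), and Uty, a Y-linked demethylase, 6.11 and 6.00 against 6.20 and 6.39 (0.24 ± 0.12; adjusted p = 0.248), so neither passed. With no between-array normalization Xist was called. Uty was near background, and above it on 1 of the 2 wild type arrays. Of 5 listed sex-linked genes 4 were on the array, and only these 2 passed the detection filter.

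Position genes differed by cluster. Hox genes keep a record of where along the body axis a fibroblast arose, with late members of each cluster used in posterior and distal parts. Of 22 tested, 3 were higher and 4 lower (31.8% called, against 13% of all genes). All 3 higher genes lay at the posterior end of the Hoxd cluster: Hoxd10 gave 8.06 and 7.98 in wild type and 10.22 and 9.99 in staggerer (2.09 ± 0.14; adjusted p = 0.000151). Hoxd12 gave 5.84 and 6.30 against 7.84 and 7.93 (1.81 ± 0.19; adjusted p = 0.00111), and Hoxd13 was at least 2.66-fold higher. These 3 held without each array. In the same cluster Hoxd9 (0.55 ± 0.18), Hoxd8 (0.17 ± 0.13) and Hoxd4 (-0.29 ± 0.29) did not pass. Late members of the other clusters were not called higher. Hoxa13 (0.14 ± 0.18), Hoxa9 (0.45 ± 0.21), Hoxb9 (-0.06 ± 0.36) and Hoxc10 (-0.14 ± 0.22) did not pass, and Hoxc9 was called lower.

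The 4 lower Hox genes came from the other clusters. Hoxc9 gave 10.42 and 10.38 against 8.92 and 8.95 (-1.47 ± 0.14; adjusted p = 0.000714), and Hoxc6 13.02 and 13.11 against 12.20 and 12.22 (-0.85 ± 0.13; adjusted p = 0.00524). Hoxa5 and Hoxb7 were each lower by 0.86 and lost their calls without a compared array (adjusted p up to 0.128 and 0.0647). Without wild type replicate 1 or staggerer replicate 1 the lower count was 2, and with no normalization between arrays it was 9. Of 18 other body region and limb factors, 4 were higher and 7 lower (61.1% called, against 13% of all genes). Higher were the homeobox genes Dlx1, at least 2.67-fold, with Dlx2, Msx1 and Msx2, which pattern limb bud and face. The calls of Dlx2, Msx1 and Msx2 were lost without a compared array. Lower were Gata6, a mesoderm and endoderm factor (-1.64 ± 0.12), Meox1, a somite factor (-1.55 ± 0.17), Meis1 and Meis2, Hox cofactors of proximal limb (-1.46 ± 0.19 and -0.84 ± 0.14), and En1, Isl1 and Tbx2. The calls of Meis2, En1, Isl1 and Tbx2 were lost without a compared array (adjusted p up to 0.0712, 0.127, 0.116 and 0.0811). Without wild type replicate 1 these counts fell to 1 higher and 3 lower, with 3 lower also without wild type replicate 2.

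**Figure D4:**
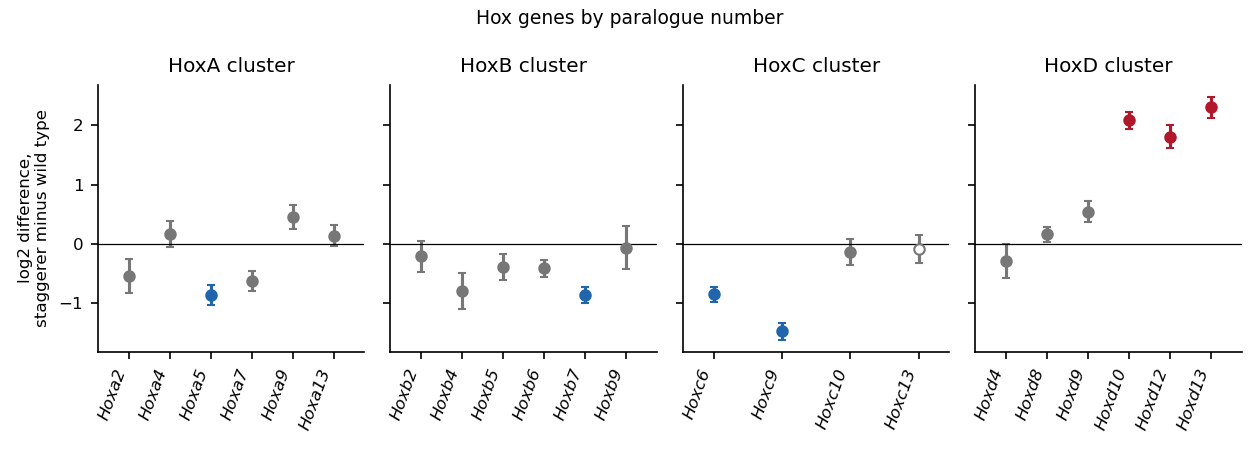
Log2 difference, staggerer minus wild type in untreated cells, of the tested Hox genes in their order within each of the 4 clusters, with standard errors. The posterior Hoxd genes Hoxd10, Hoxd12 and Hoxd13 stand above 0 and Hoxc9, Hoxc6, Hoxa5 and Hoxb7 below it.

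Chemokines were called in both directions. Of 15 tested, 6 were higher and 4 lower (66.7% called, against 13% of all genes). The higher ones included neighbours of Ppbp in the CXC cluster on mouse chromosome 5, a group of chemokines that mostly attract neutrophils: in annotation order, Cxcl5 was higher by 1.03, Ppbp by 7.14, Cxcl15 by 4.69 and Cxcl1 by 1.34. Cxcl1 gave 10.21 and 10.03 in wild type and 11.43 and 11.49 in staggerer (adjusted p = 0.00127). Pf4, which lies between Ppbp and Cxcl15 and encodes platelet factor 4, went the other way and was at least 1.03-fold lower, with the call lost without a compared array (adjusted p up to 0.0539). Cxcl2 and Cxcl3 of this cluster were not among the genes tested. Cx3cl1, fractalkine, was also higher (1.30 ± 0.17), as was Ccl5 (0.74 ± 0.18). The calls of Cxcl5 and Ccl5 were lost without a compared array (adjusted p up to 0.101 and 0.186). Lower were Ccl4 and Ccl9, which attract monocytes: Ccl4 gave 9.25 and 9.06 against 6.12 and 5.98 (-3.10 ± 0.13; adjusted p = 2.28e-05) and was above background on 1 staggerer array. A second Ccl4 probe gave -1.02. Cxcl12, the ligand of CXCR4, was lower by 0.75 and Cxcl16 was lower by 0.93. Both lost their calls without a compared array (adjusted p up to 0.0963 and 0.124), and the lower count was 2 without wild type replicate 1. The macrophage markers above moved with Ccl4 and Ccl9, and their part in these differences was not tested.

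Among NF-kB and inflammatory genes, 1 of 16 was higher and 4 lower (31.2% called, against 13% of all genes). Saa3, an acute-phase protein, gave 9.91 and 9.83 against 7.66 and 7.42 (-2.33 ± 0.15; adjusted p = 0.000119). Nfkbiz, a nuclear IκB protein, was lower by 1.30 and Vcam1, an adhesion molecule for leukocytes, by 0.97, while Icam1 lost its call without a compared array (-0.59, adjusted p up to 0.195). Lcn2, the iron-chelating protein lipocalin 2, was higher (1.16 ± 0.11). Rela, the NF-kB subunit p65, did not pass (-0.30 ± 0.17).

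Interferon-induced genes were examined as another list. Of 19 tested, 9 were lower, 1 was higher and 9 did not pass, against 6.26% and 6.69% of all genes, with a median of -0.43. Usp18, which removes ISG15 from proteins, gave 9.12 and 9.11 in wild type and 7.36 and 7.21 in staggerer (-1.83 ± 0.12; adjusted p = 0.000142). Isg15, the ubiquitin-like modifier itself, gave 8.72 and 8.95 against 7.56 and 7.51 (-1.29 ± 0.14; adjusted p = 0.00119), and Oasl2, of the oligoadenylate synthetase family, was at least 3.59-fold lower. Bst2, Ifitm3, Irf9, Stat2, Igtp and Rsad2 were the other lower members, and each lost its call without a compared array (adjusted p up to 0.176, 0.16, 0.21, 0.234, 0.139 and 0.0893). Ifit3, an RNA-binding antiviral protein, was the exception: 8.91 and 8.91 against 10.64 and 10.54 (1.68 ± 0.11; adjusted p = 0.000151). Leaving out wild type replicate 1, wild type replicate 2, staggerer replicate 1 or staggerer replicate 2 reduced the lower count to 3, 4, 4 and 3. None of 11 MHC class I genes passed in limma (1 higher and 3 lower at an unadjusted p under 0.05), and B2m, the light chain, gave 0.11 ± 0.12. Other fits called 0 to 4 of the 11, most often Psmb10, a subunit of the immunoproteasome.

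Extracellular matrix genes split within families. Among 16 elastic fibre and microfibril genes, 5 were lower and 2 higher (43.8% called, against 13% of all genes). Eln, the elastic core, gave 9.87 and 9.86 in wild type and 6.95 and 6.85 in staggerer (-2.96 ± 0.14; adjusted p = 4.2e-05), and Mfap4 gave 9.28 and 9.10 against 6.76 and 6.51 (-2.55 ± 0.18; adjusted p = 0.00018). Fbln1, fibulin 1, was lower by 0.98. Lox, which cross-links elastin and collagen, did not pass (0.25 ± 0.12) and was bright in both genotypes. The lower count was 3 without wild type replicate 1, wild type replicate 2 or staggerer replicate 1, and Mfap2 and Mfap5 were among the calls lost (adjusted p up to 0.0979 and 0.061).

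Of 18 proteoglycans and matricellular proteins, 3 were lower and 2 higher (27.8% called). Dcn gave 12.71 and 12.68 against 9.91 and 10.17 (-2.65 ± 0.14; adjusted p = 5.46e-05), whereas Lum, lumican, a related collagen-binding proteoglycan, went from 9.21 and 9.13 to 10.13 and 10.05 (0.92 ± 0.11; adjusted p = 0.00213). Likewise within the CCN family Ccn4 was lower (-1.30 ± 0.13), Ccn5 higher (1.46 ± 0.16) and Ccn2 not called (0.22 ± 0.12). Thbs2, thrombospondin 2, was lower by 1.58. Of 18 matrix proteases and inhibitors, 5 were higher and 1 lower (33.3% called). Mmp3 gave 7.86 and 8.0 against 10.20 and 9.98 (2.16 ± 0.15; adjusted p = 0.000162), Plau, urokinase, was higher by 0.94 and Mmp13, collagenase 3, by 0.86. The higher count was 3 without wild type replicate 1, wild type replicate 2 or staggerer replicate 1. With no normalization between arrays Mmp3 was the member that stayed called higher, and the list's median changed sign (0.21 to -0.12). Of 16 listed collagens, Col4a5 and Col6a2 were called higher and 0 lower (4 and 2 at an unadjusted p under 0.05 in limma; 12.5% called, near the share of all genes), and both calls were lost without a compared array (adjusted p up to 0.0543 and 0.178).

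Of 12 smooth muscle contractile genes 2 were higher and 1 lower (25% called, against 13% of all genes), and all 3 calls, Myh11, Lmod1 and Mylk, were lost without a compared array (adjusted p up to 0.0902, 0.158 and 0.133). Acta2, smooth muscle actin, was at the top of the intensity range in both genotypes (0.06 ± 0.11). Of 4 skeletal and cardiac muscle genes tested, 2 were lower and 1 higher (75% called). Acta1, skeletal actin, was lower by 0.70 and Myl4, a myosin light chain, higher by 0.51, and both lost their calls without a compared array (adjusted p up to 0.177 and 0.251). Des, the muscle intermediate filament, was at 10.60 and 10.71 in wild type and 7.83 and 7.53 in staggerer (-2.98 ± 0.17; adjusted p = 7.49e-05), while Myod1, Myog and Myf5, the muscle determination factors, did not pass the detection filter.

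Genes of the insulin-like growth factor system differed in both directions. Of 13 genes tested, 3 were higher and 5 lower (61.5% called, against 13% of all genes). Igfbp2 was higher by 3.61, Igfbp4, a carrier that inhibits IGF action, gave 12.06 and 11.99 in wild type and 13.26 and 13.16 in staggerer (1.19 ± 0.16; adjusted p = 0.00329), and Igfbp3, the main serum carrier, was higher by 0.84 and lost its call without a compared array (adjusted p up to 0.0648). Igfbp6, a carrier that prefers IGF2, gave 9.91 and 9.99 against 7.51 and 7.41 (-2.49 ± 0.12; adjusted p = 3.68e-05). Igfbp5, which binds the matrix, gave 11.75 and 11.77 against 10.18 and 10.06 (-1.63 ± 0.15; adjusted p = 0.000607). The ligands were lower as well: Igf1 by 0.97 and Igf2, near the top of the range at 16.05 and 16.01 against 15.10 and 15.08, by 0.94. The receptor Igf2r did not pass (-0.18 ± 0.13).

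Other growth factor genes were called in both directions, 5 of 21 higher and 4 lower (42.9% called, against 13% of all genes). Mdk and its only family relative Ptn, pleiotrophin, were both lower; Ptn gave 13.23 and 13.27 against 11.56 and 11.42 (-1.76 ± 0.15; adjusted p = 0.000444). Vegfc, a lymphatic growth factor, was lower by 1.07, and Fgfr2, a receptor of fibroblast growth factors, higher by 1.0, a call lost without a compared array (adjusted p up to 0.063). Without a compared array the higher count was 1 or 2. Of 23 Wnt pathway genes 5 were higher and 1 lower (26.1% called). Rspo2, a secreted enhancer of Wnt signalling, gave 8.76 and 8.72 against 10.85 and 10.77 (2.07 ± 0.19; adjusted p = 0.000488), and Rspo3 was higher by 0.99. Sfrp2, Dkk3 and Wnt16 lost their calls without a compared array (adjusted p up to 0.061, 0.128 and 0.138), where the higher count was 2 or 3. Of 24 TGF-beta and BMP genes 6 were higher and 3 lower (37.5% called). Id1, a target of BMP signalling, was higher by 1.04 and Gdf10, a BMP-related ligand, lower by 1.35, while Bmp4, Tgfb3 and Inhba were called higher and lost their calls without a compared array (adjusted p up to 0.0776, 0.0715 and 0.166). The count higher was 1 to 3 without a compared array. Hey1, a repressor downstream of Notch, gave 6.87 and 6.18 against 8.37 and 8.07 (1.69 ± 0.22; adjusted p = 0.00273) and was the member called of 9 Notch genes (11.1%).

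Replication genes were called in a single direction. Of 29 tested, 13 were lower and 0 higher (22 and 0 at an unadjusted p under 0.05 in limma), against 6.26% of all genes lower, and 27 of 29 differences were below 0. The median was -0.48, and it lay between -0.85 and -0.38 under the other scalings. Rrm1, the large subunit of ribonucleotide reductase, gave 11.33 and 11.23 in wild type and 10.36 and 10.44 in staggerer (-0.88 ± 0.11; adjusted p = 0.0024). Mcm10, which helps to activate the replicative helicase, gave 9.98 and 9.84 against 8.98 and 8.96 (-0.93 ± 0.14; adjusted p = 0.00437). Pold3, a polymerase δ subunit, Mcm5, a helicase subunit, and Fen1, which trims Okazaki fragments, were called lower by 0.75 to 0.84, each losing its call without a compared array (adjusted p up to 0.0591, 0.0844 and 0.0894). Single calls were thus near the threshold: the lower count was 3, 2, 4 and 2 without wild type replicate 1, wild type replicate 2, staggerer replicate 1 and staggerer replicate 2. Of 19 mitotic genes, 3 were lower and 0 higher (12 and 0 at an unadjusted p under 0.05 in limma; 15.8% called, against 13% of all genes), all 19 differences were below 0 and the median was -0.40. The 3 were Top2a, Plk1 and Aurka, and each call was lost without a compared array (adjusted p up to 0.0779, 0.135 and 0.196).

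Among cyclins and inhibitors of the G1 phase, 2 of 18 were higher and 1 lower (16.7% called, near the 13% of all genes). Cdkn2a, the locus of the inhibitor p16INK4A and of ARF, which restrains Mdm2, gave 10.44 and 10.26 in wild type and 12.09 and 11.88 in staggerer (1.64 ± 0.14; adjusted p = 0.000356). Its second probe, above background on all 4 arrays, gave 0.31. Cdkn1c, the imprinted inhibitor p57, gave 12.40 and 12.31 against 10.82 and 10.86 (-1.52 ± 0.12; adjusted p = 0.000275). Cdkn2c, the inhibitor p18, was higher by 0.88 and lost its call without wild type replicate 1 (adjusted p = 0.0518). Ccnd1, cyclin D1, did not pass (0.45 ± 0.13).

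Targets of p53 were called about as often as all genes before the drug. Of 26 tested, 2 were higher and 1 lower (11.5%, against 13%). Fas, a death receptor, gave 9.94 and 10.24 in wild type and 11.29 and 11.10 in staggerer (1.10 ± 0.14; adjusted p = 0.00247). The cell death genes Pmaip1, which encodes NOXA, and Bbc3, which encodes PUMA, were called in opposite directions (0.69 and -0.74) and lost their calls without a compared array (adjusted p up to 0.138 and 0.212). Cdkn1a, the inhibitor p21, gave overlapping values of 14.08 and 14.00 against 14.00 and 14.09 (0.01 ± 0.13). The regulators Mdm2, the main ubiquitin ligase of p53 (0.11 ± 0.14), Ppm1d, a phosphatase (-0.10 ± 0.15), Cop1 (0.07 ± 0.15) and Rchy1 (-0.38 ± 0.25), other ubiquitin ligases, and Usp7, a deubiquitinase that acts on Mdm2 and p53 (9.06 and 9.11 against 8.80 and 8.99; -0.19 ± 0.17), did not pass.

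Histone genes were called in both directions, more of them higher. Of 41 tested, 18 were higher, 3 lower and 20 did not pass, against 6.69% and 6.26% of all genes, with a median of 0.39. H4c8 gave 8.76 and 8.79 in wild type and 10.38 and 10.35 in staggerer (1.59 ± 0.12; adjusted p = 0.000201), H2bc6 6.90 and 6.81 against 8.11 and 8.23 (1.32 ± 0.13; adjusted p = 0.000745), and H2bc7 11.94 and 11.97 against 13.02 and 13.11 (1.11 ± 0.11; adjusted p = 0.000888). These encode core histones H4 and H2B. The higher members included H1, H2A, H2B, H3 and H4 genes, while H2ac7, H2ac10 and H2ac12 were called lower and lost their calls without a compared array (adjusted p up to 0.146, 0.215 and 0.16). Copies of a histone gene are nearly identical in sequence, so a probe can take signal from several of them. The higher count was 11 without staggerer replicate 2, the lower count was 0 or 1 without a compared array, and the median fell to 0.02 with no normalization between arrays.

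Of 17 cholesterol synthesis genes tested, 7 were lower and 0 higher (10 and 0 at an unadjusted p under 0.05 in limma), against 6.26% of all genes lower. Among them 16 of 17 differences were below 0, and the median was -0.52 (-0.83 to -0.40 under the other scalings). Stard4, a sterol carrier, gave 9.35 and 9.27 against 8.54 and 8.55 (-0.77 ± 0.11; adjusted p = 0.00418). Cyp51, Fdps, Hmgcs1 and Mvd, enzymes along the route from acetyl-CoA to sterols, were called lower by 0.51 to 0.79 and each lost its call without a compared array (adjusted p up to 0.0705, 0.0675, 0.157 and 0.192), where the count lower was 1 to 3. In a separate list of 9 tested oxysterol and cholesterol efflux genes, 0 were higher and 1 lower (11.1% called, near the 13% of all genes). That gene, Ch25h, which makes 25-hydroxycholesterol, gave 9.88 and 9.82 against 8.38 and 8.44 (-1.44 ± 0.14, adjusted p = 0.000639).

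Pparg, the nuclear receptor that directs fat cell differentiation, gave 8.27 and 8.24 in wild type and 10.14 and 10.15 in staggerer (1.90 ± 0.12; adjusted p = 0.000142). Lpl, lipoprotein lipase, went the other way, from 11.42 and 11.52 to 9.67 and 9.53 (-1.87 ± 0.12; adjusted p = 0.000148), and the desaturases Scd1 and Scd2 were lower by 1.19 and 0.92. Of 9 adipogenic genes these 4 passed (44.4%, against 13% of all genes). Cebpb (-0.20 ± 0.23) and Plin2 (0.36 ± 0.12) did not.

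**Figure D5:**
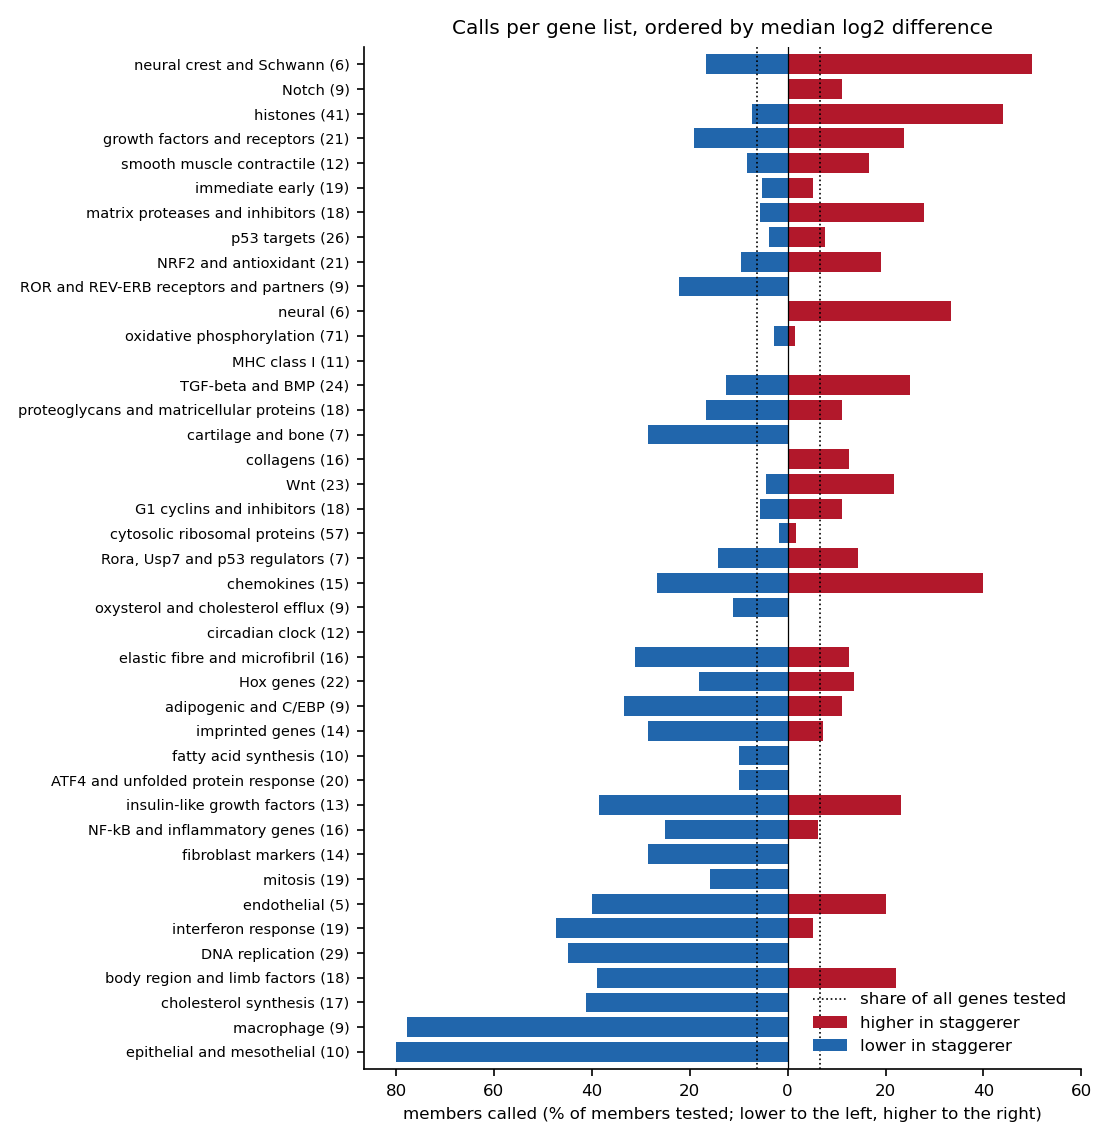
Percent of each gene list called higher (right) and lower (left) in untreated staggerer cells, for lists with at least 5 tested members, with the number tested in parentheses. Dotted lines mark the shares of all genes, 6.69% higher and 6.26% lower. Epithelial and mesothelial, macrophage, DNA replication and cholesterol synthesis genes pass the line on the lower side with no call on the other. With fewer calls, so do fibroblast, mitosis, cartilage and bone, ROR and REV-ERB, fatty acid, oxysterol and ATF4 genes. Fatty acid and oxysterol genes have 1 call each and ATF4 genes 2. Their called shares (10%, 11.1% and 10%) are below the 13% of all genes called in either direction. Histones pass the line on the higher side, as do chemokines, matrix proteases and other lists. Histones and chemokines also pass the line on the lower side.

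The genotype difference was also measured after 12 h of doxorubicin, on 4 other arrays. There 72.5% of all genes were called in either direction, on arrays whose staggerer signal stood apart. That share can be set beside the shared calls of both directions, but not beside those in the same direction alone. The share of all genes called in each single direction there is not given here. The genotype difference itself differed between the conditions for 59.2% of all genes. Of the 1210 genes called in untreated cells, 745 were called in the same direction after doxorubicin (381 higher, 364 lower), 234 in the opposite direction and 231 not at all. For the largest differences the direction was the same on those arrays: Ppbp was higher by 7.90 there, Igfbp2 by 4.0, and Mdk differed by -3.94. Rora differed by -1.55 and Cdkn2a by 2.77. Fas, higher by 1.10 untreated, differed by -1.50 after the drug, and Gdf10 by -1.35 and 1.70.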

How the data were processed

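Messenger RNA was measured on 8 Illumina bead arrays in a single colour (Cy3), after an RNeasy column extraction, per the labels' protocols. The authors deposited linear intensity values of 25697 probes and of 1124 control rows without detection p-values; 23074 blank rows were dropped. Log2 values deposited by the authors in another table equal the log2 intensity after quantile normalization without background correction (largest difference 5.1e-09), and the deposited series matrix is identical to them. The scanner software is not given in the sources used here.

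Intensities were reprocessed with limma 3.58.1 in R 4.3.3. The untyped control rows served as negative controls except for 10 bright ones (cutoff: median plus 5 median absolute deviations), leaving 1114 for a normexp background fit (nec, offset 16). Quantile normalization and log2 followed. Detection compared each probe with the control rows, and 12362 probes were kept whose share of control rows as bright or brighter was below 0.01 on 2 or more of the 8 arrays. Symbols were given for 23978 of the probes, none with several genes, and were lacking for 1719; Entrez identifiers linked 23962 to a RefSeq table (GRCm38.p6). The brightest probe of a gene stood for it, which gave 9340 genes, 715 of them unnamed probes. Another probe of a named gene is mentioned if above background and over 1 log2 unit away. Levels of different probes are not compared. The number of arrays limits the precision.

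A model with 1 mean for each of 4 groups was fitted to all 8 arrays (lmFit, eBayes; 4 residual and 3.44 prior degrees of freedom). Tests were two-sided with Benjamini-Hochberg adjustment over 9340 genes at 0.05; all adjusted p-values are from limma. For a gene below background on both arrays of a genotype, "at least N-fold" sets the bright genotype's mean against a floor: on each dim array, the gene's own signal or that of the dimmest detected probe, whichever is higher, averaged over the arrays.

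The rule named the 12 largest rises and falls among called genes detected on all 4 untreated arrays, the 6 largest bounds each way, up to 5 called members of each list with the smallest p and up to 2 bright ones not called, and all tested members of the lists of p53 regulators, clock genes and sex-linked genes. Other members of small counts were named after their values were seen. The comparison, the 44 gene lists and this rule were chosen with earlier results of these data known. The fit was tested on simulated data. Replicate numbers do not pair the samples, as the correlation of same-numbered deviations lay between -0.03 and 0.03 over all pairs of groups. A few withheld genes are not reported here.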

Additional observations from a re-analysis of the deposited data

Results flagged for a closer look

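Of the 24 genes with the largest rises or falls, 19 had a genotype difference that itself differed between untreated and doxorubicin-treated cells, by the interaction term of the same limma fit. The background is high, as 59.2% of all genes had a called interaction, and the staggerer arrays after doxorubicin had the lowest signal of the series; the part of that signal in these values was not tested. Among higher genes the difference was larger after the drug for Ppbp (interaction 0.76, adjusted p = 0.0213), Cxcl15 (1.46), Abi3bp (0.89), Car11 (1.58), Mmp3 (0.65), Cdh13 (1.52), Myom1 (1.83) and Adgrg2 (0.70, adjusted p = 0.0482). Vip had the largest interaction of the 19, from 2.10 untreated to 4.81 after the drug (interaction 2.71, adjusted p = 0.000164). Hoxd10 went the other way, from 2.09 to 0.74 (interaction -1.34, adjusted p = 0.0011).

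All 9 of the lower genes with such an interaction were closer to wild type after doxorubicin, while staying lower. They were Mdk (0.77), Crabp1 (1.68), Upk1b (1.59), Fxyd6 (1.73), Des (1.38), Eln (1.37), Dcn (1.49), Fcer1g (1.59) and Mfap4 (1.40). Fcer1g, for example, differed by -2.59 untreated and by -0.996 after the drug. The genes were chosen as the largest untreated falls, and the same untreated values enter the interaction. The dimmest detected probe was at 6.11 and 6.13 on the untreated staggerer arrays and at 6.70 and 6.86 after doxorubicin. The part of the choice and of this floor in the values was not tested.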

How the results depend on the processing

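The count of called genes was within 1.5 times of 1210 in most alternatives and left that range in the following. With no normalization between arrays, 2570 genes were called, 301 higher and 2269 lower, and 1747 were called the same way after doxorubicin, against 745. Median centring gave 923 lower against 585. A fold of at least 2 left 473 genes, 223 higher and 250 lower, 278 of them called the same way after doxorubicin. Leaving out an array gave 523 to 1748 genes, 271 to 891 higher, 252 to 857 lower, and 366 to 1003 called the same way after doxorubicin (low ends without wild type replicate 1, high ends without a staggerer doxorubicin array). In these fits the array left alone in its group is assumed to vary like the other groups. With both of those arrays left out, chosen after seeing the data, 1748 genes were called, among them all 1210. With the replicate number as a block, which does not pair the samples, 1044 genes were called and 1006 of the 1210 remained. No named result changed its direction in any alternative where it was called. Of 163 named genes called, 109 held without each array, 140 under the other scalings and 105 in every refit. Those counts cover the genes that the naming rule picked. Other called genes named in the text are outside them, and several of these lost their calls, as given above. With 2 arrays a group, the smallest log2 difference called was 0.43.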

Other observations

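Genes of the antioxidant response driven by NRF2 were called in both directions, 4 of 21 higher and 2 lower (28.6% called, against 13% of all genes). Nqo1, a quinone reductase, gave 8.46 and 8.35 in wild type and 9.72 and 9.69 in staggerer (1.30 ± 0.12; adjusted p = 0.000488), Sod3, the extracellular superoxide dismutase, 7.53 and 7.63 against 9.12 and 9.21 (1.58 ± 0.15; adjusted p = 0.000539), and Hmox1, haem oxygenase 1, 9.36 and 9.10 against 10.58 and 10.41 (1.27 ± 0.14; adjusted p = 0.00111). Gsta3, a glutathione transferase, was at least 2.11-fold lower. The bright members Prdx1 (-0.21 ± 0.12) and Mt1 (-0.30 ± 0.14) did not pass.

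Among 14 genes listed as imprinted, meaning read from a single parental copy in at least some tissues, 4 were lower and 1 higher (35.7% called). Dlk1, a Notch-like protein of embryonic precursors, gave 13.36 and 13.43 against 11.31 and 11.13 (-2.18 ± 0.15; adjusted p = 0.000151), and the others lower were Dcn, Cdkn1c and Igf2, which other lists also hold. Mest was called higher and lost its call without a compared array (adjusted p up to 0.211). Housekeeping lists gave few calls: 2 of 57 cytosolic ribosomal protein genes (3.51%) and 3 of 71 oxidative phosphorylation genes (4.23%), against 13% of all genes.

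Called genes were spread over the chromosomes, with shares from 10.1% on chromosome 12 to 19.7% on chromosome 13. Chromosome 9, which carries Rora, had 37 genes higher and 32 lower of 499 (13.8%).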
